A study of Mus musculus with 2 samples.

Results

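Of 6 transcription factor genes of preadipocyte commitment, *Ebf2*, on all 3 of its probe sets, and *Gata2*, on 1 of 2, were at least 1.5-fold higher in BCL11B-/- than in BCL11B+/+ mouse embryonic fibroblasts (MEFs), with 1 array for each genotype. The 6 genes, *Ebf1*, *Ebf2*, *Zfp423*, *Zfp521*, *Gata2* and *Gata3*, were taken by name, as every probe set of the array whose platform annotation names exactly 1 gene and that gene is one of them. They had 14 probe sets, and 18193 genes in all had at least 1 such probe set. MEFs are primary fibroblast cultures, taken here from C57BL/6 embryos at E12.5 that were either wild type (BCL11B+/+) or homozygous for a loss of *Bcl11b* (BCL11B-/-). Cells of passage 2 of both genotypes were kept for 12 h in adipocyte differentiation medium with serum and the same 4 agents. These were 10 μM pioglitazone, 10 μg/ml insulin, 0.5 mM methylisobutylxanthine and 1 μM dexamethasone. No culture without this medium was measured. The study's methods also list ascorbic acid for this medium, which the labels do not. Each genotype was measured on 1 Affymetrix array, and how many embryos gave the cells is not given in the sources used here.

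The commitment of a mesenchymal cell to the adipocyte lineage precedes the burst of PPARγ and C/EBPα that completes differentiation. In mouse cells EBF1 and EBF2, DNA-binding proteins with a helix-loop-helix domain, act upstream of PPARγ, and EBF2 marks precursors of brown and beige fat. ZFP423 is a zinc finger cofactor of SMAD and EBF proteins that raises PPARγ in preadipocytes, and its close relative ZFP521 binds EBF1 and restrains adipogenesis. GATA2 and GATA3 are expressed in preadipocytes, where they hold PPARγ down, and their levels normally fall as adipocytes form.

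The values are log2 expression after the robust multi-array average, differences are BCL11B-/- minus BCL11B+/+, and a pair of values gives the BCL11B+/+ array first and the BCL11B-/- array second. With 1 array per genotype a difference has no replicate check, so no p-value is given and 1.5-fold (0.585 log2 units) serves as the rule for counting. As a technical yardstick, the differences of probe sets that share a gene scattered with an SD of 0.145 log2 units, pooled over 5543 genes, and this holds no variation between cultures. Levels of different probe sets are not comparable with each other, since probes differ in binding strength.

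*Bcl11b* itself was lower on all 4 of its probe sets, by 2.26- to 2.97-fold, and 8.77 against 7.40 on the brightest. The labels do not say which part of the gene was deleted. The fibroblast label was borne out by *Col1a2*, at 14.06 and 13.97, and *Col3a1*, at 13.87 and 13.74. The 2 cultures also differed in sex-linked transcripts, with *Xist* at 10.80 and 4.8 and the Y-linked *Eif2s3y* at 7.89 and 8.97. The Y-linked *Kdm5d* read 6.84 and 7.81 and *Uty* 6.80 and 7.61. The BCL11B+/+ array thus carried *Xist* and Y-linked signal together, and whether its culture pooled embryos of both sexes is not given. An effect of embryo sex on the 6 genes cannot be told apart from genotype, since each genotype was measured once. In whole cultures, more cells of a type and more RNA per cell cannot be told apart either.

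*Ebf2* showed the largest difference of the 6 genes. Its brightest probe set read 6.93 and 7.78, which is 1.80-fold higher. The second probe set read 5.61 and 6.26, a 1.58-fold difference, and the third 4.88 and 5.59, a 1.64-fold difference. All 3 probe sets therefore passed 1.5-fold in the same direction, from 0.66 to 0.85 log2 units, although all 3 derive from 1 source sequence in the annotation and the third lay under 5 log2 units in BCL11B+/+ MEFs. Among 12331 genes with a mean of at least 5 log2 units, *Ebf2* ranked 79th from the highest. Of 2302 genes with at least 3 probe sets at such a mean, 15 genes (0.652%) had every one of them 1.5-fold higher. This count was added after the values were seen, and *Ebf2* and *Ebf3* were among the 15. The third probe set of *Ebf2* reached the mean of 5 only through its BCL11B-/- value. The share is therefore no measure of how rare *Ebf2* is.

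*Ebf1* differed the other way. Its brightest probe set read 9.34 and 9.02, 1.25-fold lower. The next 3 probe sets read 9.09 and 8.89, 8.71 and 8.48, and 7.85 and 7.64, so that the 4 differences lay between −0.32 and −0.19. None of them reached 1.5-fold, and 3 of the 4 derive from 1 source sequence. The fifth probe set read 2.92 and 3.11, under the floor of 5 log2 units where signal is mostly background. That floor itself lay below the median of all probe sets, 5.28 on both arrays. A mean just over the floor therefore does not by itself show expression. The ranges of *Ebf1* above that floor and of *Ebf2* did not overlap, and with single arrays the difference between the genes was not tested.

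**Figure D1:**
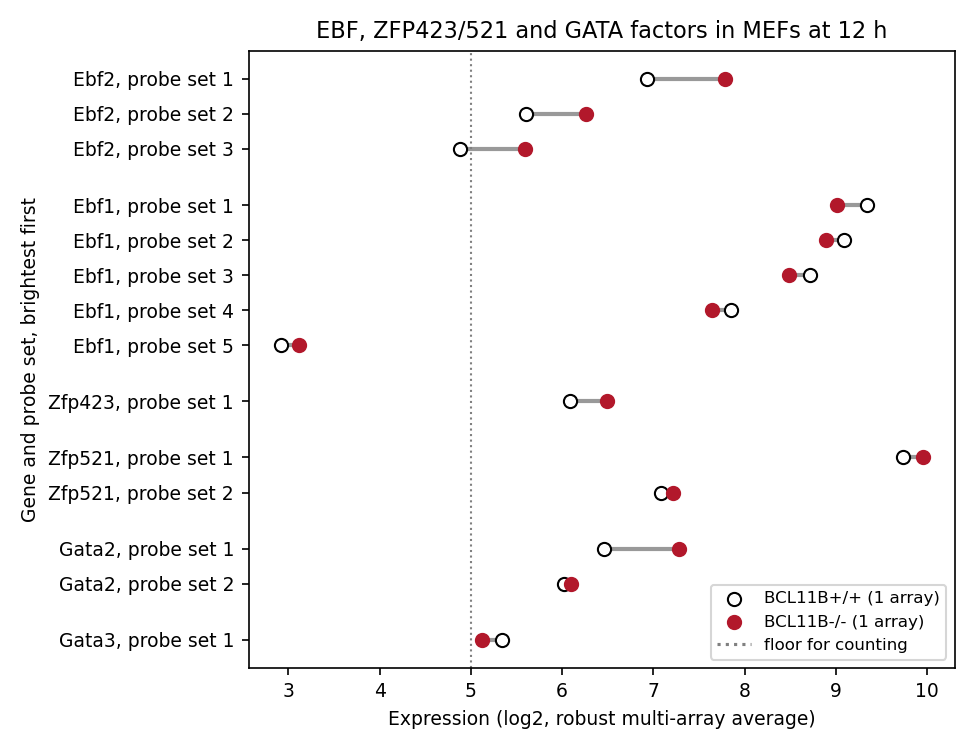
The horizontal axis gives log2 expression and the vertical axis the 14 probe sets of the 6 genes, brightest first within a gene. Open circles are the BCL11B+/+ array and filled circles the BCL11B-/- array, with no replicates and hence no error bars. The filled circle lies well to the right on all 3 probe sets of *Ebf2* (6.93 to 7.78 on the first) and on 1 of 2 of *Gata2*, and slightly to the left on the 4 probe sets of *Ebf1* to the right of the dotted line, which marks 5 log2 units.

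*Zfp423* was measured by 1 probe set, which read 6.09 and 6.49. The difference of 0.40, or 1.32-fold, fell short of the rule, and 4.05% of the 12331 genes lay higher. *Zfp521*, the gene of its antagonist, read 9.74 and 9.95 on its brighter probe set and 7.08 and 7.22 on the other. The differences were 0.21 and 0.14, and the larger is 1.48 times the SD between probe sets of a gene. Both zinc finger genes thus stood slightly higher in BCL11B-/- MEFs, without either reaching 1.5-fold.

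The 2 probe sets of *Gata2* gave different answers. The brighter read 6.46 and 7.28, 1.77-fold higher and 86th from the highest among 12331 genes. The dimmer read 6.02 and 6.09, a difference of 0.08. Their mean of 0.45 falls short of 1.5-fold, so *Gata2* counts as higher on 1 probe set only. Both carry the _a suffix, which marks probe sets that can bind several transcripts of a gene, and they derive from different source sequences. *Gata3* read 5.34 and 5.13 on its 1 probe set, 1.16-fold lower and close to the floor in both genotypes, so that little can be read from it.

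RefSeq (GRCm38.p6) lists 2 start sites for *Gata2*, on chromosome 6, and which transcript each probe set binds is not given in the files. The 250 bases before each start are shown because *Gata2* is the gene whose probe sets disagreed, and those of 1 of the 2 *Zfp423* starts, on chromosome 8, because it alone among the windows found held a nuclear receptor half-site. Capitals mark matches to GATAA (GATA factors), to the palindrome CCCNNGGG (the core of the EBF site) and to AGGTCA (the half-site bound by nuclear receptors, the COUP-TF partners of BCL11B among them), each searched on both strands.
Gata2 upstream start, chr6:88193641-88193890, plus strand: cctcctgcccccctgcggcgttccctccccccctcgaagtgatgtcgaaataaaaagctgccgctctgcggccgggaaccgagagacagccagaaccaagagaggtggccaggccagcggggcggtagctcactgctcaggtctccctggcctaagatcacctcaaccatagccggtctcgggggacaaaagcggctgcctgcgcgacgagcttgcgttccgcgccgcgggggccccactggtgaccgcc
Gata2 downstream start, chr6:88198414-88198663, plus strand: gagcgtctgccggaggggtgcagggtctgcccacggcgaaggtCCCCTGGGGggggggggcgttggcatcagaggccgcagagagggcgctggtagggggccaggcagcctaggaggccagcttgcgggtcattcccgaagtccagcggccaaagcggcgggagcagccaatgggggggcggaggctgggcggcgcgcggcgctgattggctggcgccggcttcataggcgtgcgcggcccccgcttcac
Zfp423, chr8:87804440-87804689, minus strand: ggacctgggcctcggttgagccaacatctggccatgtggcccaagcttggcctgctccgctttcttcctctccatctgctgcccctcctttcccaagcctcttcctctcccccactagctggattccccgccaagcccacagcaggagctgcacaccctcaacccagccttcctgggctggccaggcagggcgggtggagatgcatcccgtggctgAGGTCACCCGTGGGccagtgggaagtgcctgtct
The downstream *Gata2* start held 2 overlapping matches to CCCNNGGG and the upstream start none of the 3 motifs. The *Zfp423* window held 1 match to AGGTCA and, directly after it and without overlap, 1 to CCCNNGGG. Windows were found for 4 of the 6 genes, 7 windows in all, and *Ebf2* and *Zfp521* had none in the table. Among the other 4 windows, 1 start of *Ebf1* held a single match to GATAA, and the other start of *Ebf1*, that of *Gata3* and the other start of *Zfp423* held no match. Of all 32851 windows of this length 22.6% held GATAA, 11.8% CCCNNGGG and 14.0% AGGTCA, so such matches are common, and a match is no evidence of binding.

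Over the 6 genes, 2 were at least 1.5-fold higher in BCL11B-/- MEFs, none was lower and 4 were neither. The background was 1.61% of 12331 genes at least 1.5-fold higher (198 genes) and 1.75% at least 1.5-fold lower (216 genes). Among the 4734 genes with a mean of 6 to 8 log2 units, the range that holds *Ebf2*, *Zfp423* and *Gata2*, 1.99% were higher, a count added after the values were seen. The median difference was 0.31 for the 6 genes, from −0.32 for *Ebf1* to 0.85 for *Ebf2*, against 0 for all genes. By sign the genes were mixed within each role, but 4 of the 6 fell short of 1.5-fold, so no split by role can be read. Of the genes whose proteins promote adipogenesis, *Ebf2* and *Zfp423* lay above 0 and *Ebf1* below, and of those that restrain it, *Gata2* and *Zfp521* lay above 0 and *Gata3* below. By the weighted average difference, the ranking of the study's methods, which multiplies a difference by the relative expression level, *Ebf2* stood 103rd and *Gata2* 156th from the highest of 18193 genes, *Zfp423* 952nd and *Zfp521* 979th, while *Ebf1* stood 536th and *Gata3* 3783rd from the lowest. None was among the 50 highest or 50 lowest.

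**Figure D2:**
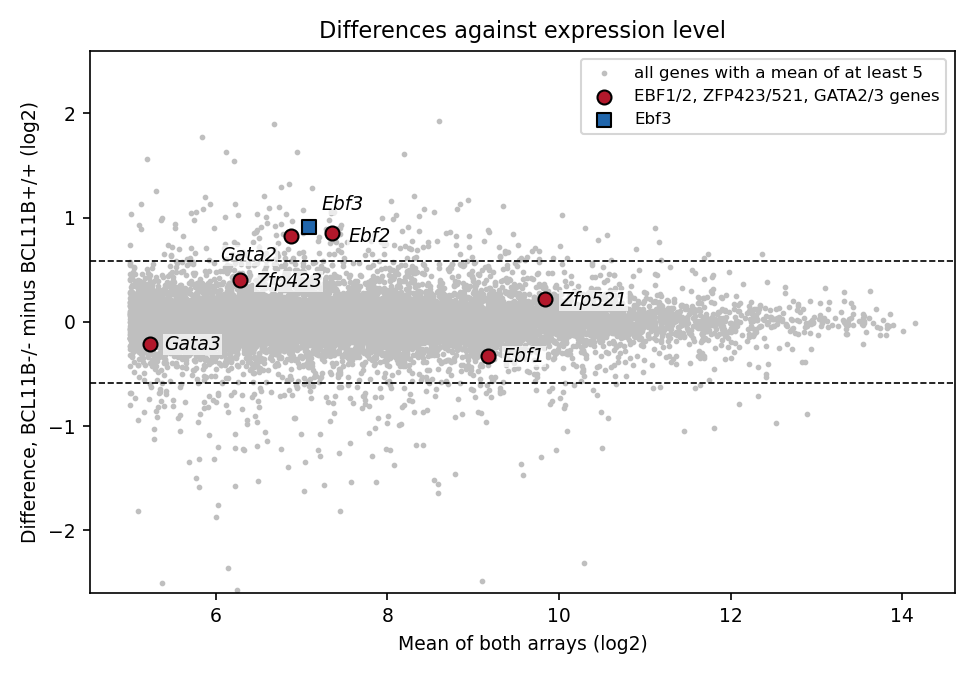
The vertical axis gives the log2 difference of BCL11B-/- minus BCL11B+/+ MEFs and the horizontal axis the mean log2 level of both arrays, for genes with a mean of at least 5 log2 units (grey), the 6 commitment factor genes (circles) and *Ebf3* (square), with 1 array per genotype. *Ebf2* at 0.85, *Gata2* at 0.82 and *Ebf3* at 0.91 lie above the dashed line at 1.5-fold, the other 4 circles lie between the dashed lines, and 1 gene falls outside the plotted range.

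Among the 6 remaining genes of the EBF and GATA families, *Ebf3*, whose protein shares the DNA-binding domain of EBF1 and EBF2, was the only one past 1.5-fold of 3 with a mean of at least 5. Its brightest probe set read 6.63 and 7.54, 1.88-fold higher. The other 2 read 6.24 and 6.83, and 5.0 and 5.66, and the first of these just met the rule at 0.59. *Ebf2* and *Ebf3* therefore differed in the same direction on all 6 of their probe sets. These derive from 1 source sequence for *Ebf2* and 2 for *Ebf3*, so they are not 6 independent readings. *Gata6*, a factor of heart and endoderm, read 9.25 and 8.92 on its brightest probe set, and all 3 of its probe sets lay below 0, none at 1.5-fold. *Gata4* read 5.43 and 5.56, while *Ebf4*, *Gata1* and *Gata5* had means under 5.

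Of 12 measured genes of the partners of these factors and of BMP-SMAD signaling, through which ZFP423 acts, 1 was higher, none was lower and 11 were neither, with a median of 0.02. The 1 gene was *Ccn5* (*Wisp2*), whose secreted protein also binds ZFP423 in the cytosol of preadipocytes and keeps it out of the nucleus, at 7.39 and 9.0. The study singled out this gene on the same 2 arrays. By real-time PCR it also reported significantly more *Wisp2* mRNA in BCL11B-/- MEFs at the same time point. The array reading given here is therefore no independent evidence, and no PCR data were read here. *Bmp4*, the ligand reported to release ZFP423 from that complex, read 6.53 and 6.95, short of 1.5-fold at 0.42. The signal transducers *Smad1*, *Smad4* and *Smad5* differed by 0.06, 0.02 and −0.15, and the GATA cofactor gene *Zfpm2* by 0.02.

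Of 8 measured adipocyte genes, none was higher, 3 were lower and 5 were neither, with a median of −0.34. *Pparg*, the gene on which EBF, ZFP423 and GATA factors converge, read 7.11 and 6.40, 1.64-fold lower. *Cd36*, a fatty acid transporter gene, read 7.75 and 7.04, and the lipoprotein lipase gene *Lpl* 13.02 and 12.04. *Cebpa* read 7.04 and 6.51, a difference of −0.53 that fell short of the rule, and the highest of the list, *Adipoq*, read 5.46 and 6.02. *Ebf2* and *Gata2* were thus higher on the array on which *Pparg* was lower, and how these differences relate was not tested. Macrophages also express *Pparg*, *Cd36* and *Lpl*, and all 8 macrophage markers read lay below 0, with a median of −0.84. The part of macrophages in the lower adipocyte genes was not tested.

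Of 10 measured brown and beige fat genes, 1 was higher, 1 was lower and 8 were neither, with a median of −0.0038. *Dio2*, a thyroid hormone deiodinase gene of brown fat that the study also singled out on these arrays, read 8.75 and 9.61. *Cited1*, used as a beige fat marker, read 6.47 and 5.38, 2.13-fold lower. *Prdm16*, a coregulator gene of brown fat identity downstream of EBF2, read 5.52 and 5.99, but its mean over 4 probe sets was 0.08. *Ucp1* and *Cidea*, which mark mature brown adipocytes, had means under 5 log2 units. The brown and beige genes thus showed no common direction beside the higher *Ebf2*.

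Of 11 other transcription factor genes known to promote adipogenesis, none reached 1.5-fold either way on its brightest probe set, and the list ran from −0.57 for *Tcf7l1*, a repressor of the TCF family, to 0.22 for *Zeb1*, with a median of −0.29. On their dimmer probe sets *Egr2* and *Klf4* did pass the rule, with −0.73 and −0.60 against −0.32 and −0.44 on the brightest. Of 8 genes listed as restraining it, 1 was higher, 1 was lower and 6 were neither, with a median of 0.07. Among the 8, *Nr2f2* has a disputed place there, since its protein COUP-TFII is also described as stimulating adipogenesis. It read 9.04 and 9.36, and its dimmest probe set at the floor or over differed by 0.71. *Sox9*, a chondrogenic factor gene, read 7.42 and 8.06, and its mean over 3 probe sets of 0.55 fell short of the rule. *Dlk1*, the preadipocyte factor gene whose protein acts partly through SOX9, read 11.98 and 10.93, 2.06-fold lower. Of 10 measured adipose progenitor markers, 1 was higher, 4 were lower and 5 were neither, with a median of −0.36. *Icam1* read 8.36 and 7.35, *Cd34* 9.68 and 9.01, and *Thy1* 10.72 and 10.07. *Pi16* differed by −0.67, but by −0.42 as the mean of its 2 probe sets and by −0.18 on the one without a suffix. *Anxa3* was the gene that was higher, at 9.01 and 9.63. The progenitor markers *Pdgfra* and *Pdgfrb* differed by −0.18 and 0.36.

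**Figure D3:**
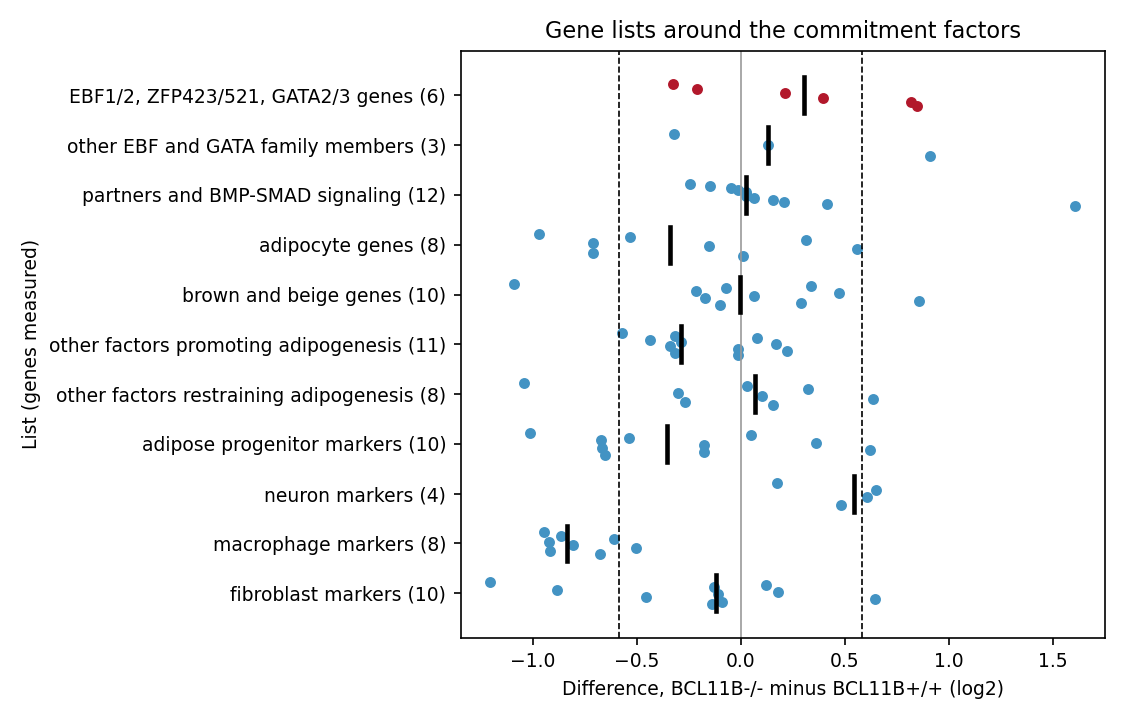
The horizontal axis gives the log2 difference of BCL11B-/- minus BCL11B+/+ MEFs for genes with a mean of at least 5 log2 units, and the vertical axis 11 lists with their number of genes. Each point is a gene on single arrays, each black bar a median, and the dashed lines stand at 1.5-fold. The median of the 6 commitment factor genes lies at 0.31, that of adipocyte genes at −0.34 and that of macrophage markers at −0.84.

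EBF and GATA factors are also expressed in neurons, lymphocytes, mast cells and epithelia, so markers of those cells were read beside them. Of 8 neuron markers 4 had a mean of at least 5, and 2 of these, *Tubb3* and *Stmn2*, were at least 1.5-fold higher in BCL11B-/- MEFs, at 5.82 and 6.42 and at 5.87 and 6.52. *Stmn2* fell to 0.43 as the mean of its 2 probe sets. *Isl1* differed by 0.48 and *Map2* by 0.17, *Dcx*, *Elavl3*, *Elavl4* and *Snap25* had means under 5, and the signal summed over the 8 markers, which the brightest probe sets dominate, was 8.26 and 8.62 log2 units. The part of neuronal cells in the higher *Ebf2* and *Ebf3* was not tested. Of the annotated B cell, T cell and mast cell markers 17 of 21 lay under 5 log2 units, among them *Pax5*, *Cd79a*, *Kit* and *Cpa3*, and none of the other 4 reached 1.5-fold. Of 8 macrophage markers, 7 passed 1.5-fold toward lower values in BCL11B-/- MEFs, although *Csf1r*, *Ptprc* and *Laptm5* fell short as means over all their probe sets. The signal summed over these 8 markers was 11.84 and 10.98. The brightest marker, *Lyz2* at 11.03 and 10.11, dominates that sum. Whether the lower macrophage signal bears on the lower *Ebf1* and *Gata3* was not tested. Of 5 epithelial and 3 endothelial markers with a mean of at least 5, none reached 1.5-fold. Of 10 fibroblast genes, 7 were within 1.5-fold, *S100a4* was higher, and the matrix proteoglycan genes *Dcn* and *Lum* were lower, with differences of −0.88 and −1.21.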

How the data were processed

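The authors hybridized RNA to Affymetrix mouse genome arrays and computed the deposited log2 values with the robust multi-array average (background correction, normalization between arrays, summary of probes). The submitters' processing notes name R 3.0.3. Normalization makes the arrays' distributions alike, and background pulls differences of dim genes toward 0. No scanner intensities were used. Of 45101 probe sets, 34945 were paired with 1 gene by the platform annotation. Each gene was represented by its brightest probe set over both arrays, and genes averaging less than 5 were left uncounted.

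The genes and lists were chosen with earlier results of these data known. Named were the 6 genes, list members past 1.5-fold, or else the highest and lowest. *Adipoq*, *Bmp4*, *Cebpa*, *Gata4*, *Gata6*, *Isl1*, *Map2*, *Prdm16* and other genes short of the rule, and the sex-linked genes, were named after their values were seen. No likeness between genes was computed, since 2 arrays give 1 difference. Counting was tested on simulated data with known folds. The simulated noise had the SD between probe sets of a gene, 0.145 log2 units, which holds no variation between cultures. The simulation therefore cannot show how the rule performs between cultures. Alternatives were other choices of probe set, a loess fit with a span of 0.4, median centring, other floors and other folds. Promoter windows were read from RefSeq tables. Software was Python 3.11.15, numpy 2.4.6, pandas 2.3.3, statsmodels 0.14.6 and matplotlib 3.10.9.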

Additional observations from a re-analysis of the deposited data

How the results depend on the processing

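Of 29 alternative differences of the 6 genes, 26 stayed within 0.145 log2 units, the SD between probe sets of a gene, and 3 did not. As the mean over all probe sets *Ebf1* was at −0.15, since its dim probe set enters, and *Gata2* at 0.45, and on its dimmer probe set *Gata2* was at 0.076. Many of the 26 could not have moved, so their number is no measure of robustness. The median difference over all probe sets was 0, so median centring changed nothing. *Zfp423* and *Gata3* have 1 probe set each, and the brightest probe sets of *Ebf1*, *Ebf2* and *Zfp521* carry no suffix. *Ebf2* stayed past 1.5-fold under every choice of probe set, the loess fit and median centring. The count of higher genes among the 6 was 1 when all probe sets were averaged, with the dimmer probe set, with only probe sets without a suffix (*Gata2* has none) and above a floor of 7, and 0 at 2-fold. At 1.2-fold 3 of the 6 were higher, with *Zfp423* added, and 1, *Ebf1*, was lower. Over all genes the higher and lower counts were 1086 and 962 at 1.2-fold, 43 and 62 at 2-fold, 112 and 124 above a floor of 7, and 94 and 92 for means of 6 to 8, as these settings count other genes by construction. Of 49 alternative list medians 8 moved by more than 0.145. That of adipocyte genes was −0.15 without suffixed probe sets, with no floor and with a mean of at least 7, that of progenitor markers −0.19 with all probe sets and −0.18 with a mean of at least 7, that of brown and beige genes 0.34 and that of the other EBF and GATA genes 0.29 with a mean of at least 7, and that of other promoting factors −0.088 with all probe sets. Of 126 alternative counts in the lists 19 moved by over 1.5 times. Among them, the lower promoting factors went from 0 to 1 without suffixed probe sets and to 2 on the dimmest, and the higher restraining factors from 1 to 0 with all probe sets and to 2 on the dimmest. The loess fit stayed between −0.011 and 0.014. The cause of the other changes was not tested. No paired analysis was possible because each genotype has 1 array, and no replicate could be left out. Another background correction was not run, since it needs scanner intensities. The number of arrays limits the precision.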
